A study of Homo sapiens with 3 samples.

Results

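The comparison set SW1990 against PANC-1, 2 established human lines from pancreatic ductal adenocarcinoma (PDAC), by their circular RNAs. Each line had 1 library, made from total RNA extracted with TRIzol and built with a NEBNext Ultra kit, and both lines grew in DMEM with 10% fetal bovine serum and penicillin-streptomycin. The third library of the series, from HPDE, a non-tumour pancreatic duct epithelial line, is used here only to say which junctions it also listed. Junctions were joined by identical coordinates on hg19, kept when they had at least 10 reads over both lines, and left out when they lay on the mitochondrial chromosome, on the unplaced scaffold gl000220 or in a 1 kb window of chromosome 14. Of 15445 distinct junctions of the 2 lines, 14932 lay outside those loci and 6650 passed the read minimum, against 17156 junctions in the whole series. The 8282 junctions below 10 reads were not compared.

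A circular RNA forms when the spliceosome joins the end of a downstream exon to the start of the same or an upstream exon, so that the exons between them close into a ring without free ends. The read that crosses this join, the back-splice junction, does not occur in the linear mRNA and is what the libraries count. Rings without ends are spared by exonucleases that degrade linear RNA, most hold exons of protein-coding genes, and their levels in cancer lines need not follow those of the host mRNA.

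The sequence across the join is what identifies a circle. For the circles on which the comparison turns, the last 20 bases of the last exon are given in lower case and the first 20 bases of the first exon in capitals, 5′ to 3′ on the strand of the host. The letters were read from GENCODE v29 transcripts and the coordinates are those of the deposited hg19 junctions. The VASP and SLC3A2 circles were much higher in SW1990, the FANCL, IPO7 and CDYL circles much higher in PANC-1, and the BCAP31 and EPHA2 circles were near the same level in both.
VASP exons 2 to 3, chr19:46020921-46021352, plus strand: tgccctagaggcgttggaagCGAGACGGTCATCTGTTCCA
SLC3A2 exons 3 to 7, chr11:62650380-62653080, plus strand: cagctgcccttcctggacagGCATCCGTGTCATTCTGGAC
FANCL exons 2 to 5, chr2:58449077-58459247, minus strand: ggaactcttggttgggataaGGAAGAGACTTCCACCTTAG
IPO7 exons 23 to 24, chr11:9462002-9463744, plus strand: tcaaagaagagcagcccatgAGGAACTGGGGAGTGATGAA
CDYL exon 4, chr6:4891947-4892613, plus strand: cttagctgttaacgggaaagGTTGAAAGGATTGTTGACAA
BCAP31 exons 5 to 7, chrX:152967462-152969549, minus strand: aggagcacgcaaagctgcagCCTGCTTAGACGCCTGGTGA
EPHA2 exons 4 to 5, chr1:16464348-16464925, minus strand: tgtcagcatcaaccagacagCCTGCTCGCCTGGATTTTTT

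Further VASP circles and a pair of ABCC1 circles are shown because the lines differed in which circle of the host led. The VASP circles of exons 2 to 3 and of exons 2 to 4 begin with the same 20 bases of exon 2 and differ in the exon that closes the ring.
VASP exons 2 to 4, chr19:46020921-46024664, plus strand: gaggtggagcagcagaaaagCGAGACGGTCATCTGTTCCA
VASP exons 4 to 7, chr19:46024580-46026076, plus strand: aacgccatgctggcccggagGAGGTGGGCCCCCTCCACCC
ABCC1 exons 11 to 12, chr16:16146581-16150152, plus strand: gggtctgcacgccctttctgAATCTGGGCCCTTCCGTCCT
ABCC1 exons 25 to 27, chr16:16215832-16219768, plus strand: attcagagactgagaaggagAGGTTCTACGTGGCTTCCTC

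The PANC-1 table listed 12886 junctions with 395610 reads outside the left-out loci, and that of SW1990 3700 junctions with 200920 reads. The left-out loci held 79.0% of the back-splice reads listed for PANC-1 and 84.2% of those for SW1990. The deposited unit is RPM, reads scaled to a library total, in which 1 read was worth 0.0273 RPM in PANC-1 and 0.0208 RPM in SW1990. Of 10 epithelial marker genes, 6 had circular reads in SW1990, CDH1, EPCAM, KRT7, ESRP1, GRHL2 and MUC1, with a sum of 15.4 RPM. None of the 10 had circular reads in PANC-1 among the junctions that could be named. Of 7 mesenchymal markers, ZEB1 alone had reads, 3.46 RPM in PANC-1 and 0.748 RPM in SW1990. A longer list of mesenchymal and matrix genes had 4 hosts by SW1990 symbol, 3 of them higher in SW1990 and 1, ZEB1, lower. MMP14 (640 reads), GAS6 (178 reads) and S100A4 (172 reads) were read in SW1990 only, but these symbols cannot name hosts read only in PANC-1. With PANC-1 junctions also named by exon span, the list had 5 hosts, 3 higher and 2 lower, with 1 host read only in PANC-1. Markers of acinar, endocrine, immune and endothelial cells were at 0 in SW1990, and of the fibroblast markers COL3A1 alone had reads, at 0.0415 RPM. In PANC-1 none of these was found among the junctions named by symbol or exon span, but junctions that could not be named were not checked, so 0 there is no sign of absence. The part of these differences and of read depth in the results that follow was not tested.

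Most junctions were listed in 1 line alone. Reads in PANC-1 only were found for 4226 of the 6650 junctions, reads in SW1990 only for 985, and reads in both lines for 1439. With 1 library per line there is no replicate error and no test. A junction was called at a fold of at least 2 in RPM, a line with 0 reads was set to 3 reads, and intervals are 95% and cover counting error only. On that rule 1286 junctions (19.3%) were higher in SW1990 and 4793 (72.1%) lower. The read minimum and the 3 reads set for 0 call every junction of a single line by construction. These counts therefore include all 985 junctions read in SW1990 only and all 4226 read in PANC-1 only.

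Among the 1439 junctions read in both lines the split was less uneven, with 301 (20.9%) higher in SW1990, 567 (39.4%) lower and 571 within 2-fold. Their median log2 fold of SW1990 over PANC-1 was -0.55, with quartiles of -1.77 and 0.73. This split depended on the scaling. Dividing by all listed back-splice reads moved every log2 fold up by 0.96 and gave 530 higher and 321 lower, and dividing by those outside the left-out loci moved it up by 1.37 and gave 652 and 241. TMM scaling, with a shift of 0.52, gave 410 higher and 413 lower, and the median of ratios, with a shift of 0.53, gave 419 and 409. The order of the junctions does not depend on that choice, and 155 of them were at least 4-fold higher in SW1990 and 308 at least 4-fold lower in RPM. Folds of at least 20 were found for 27 junctions higher and 43 lower. The counting interval left out a ratio of 1 for 258 junctions higher in SW1990 and for 546 lower.

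**Figure D1:**
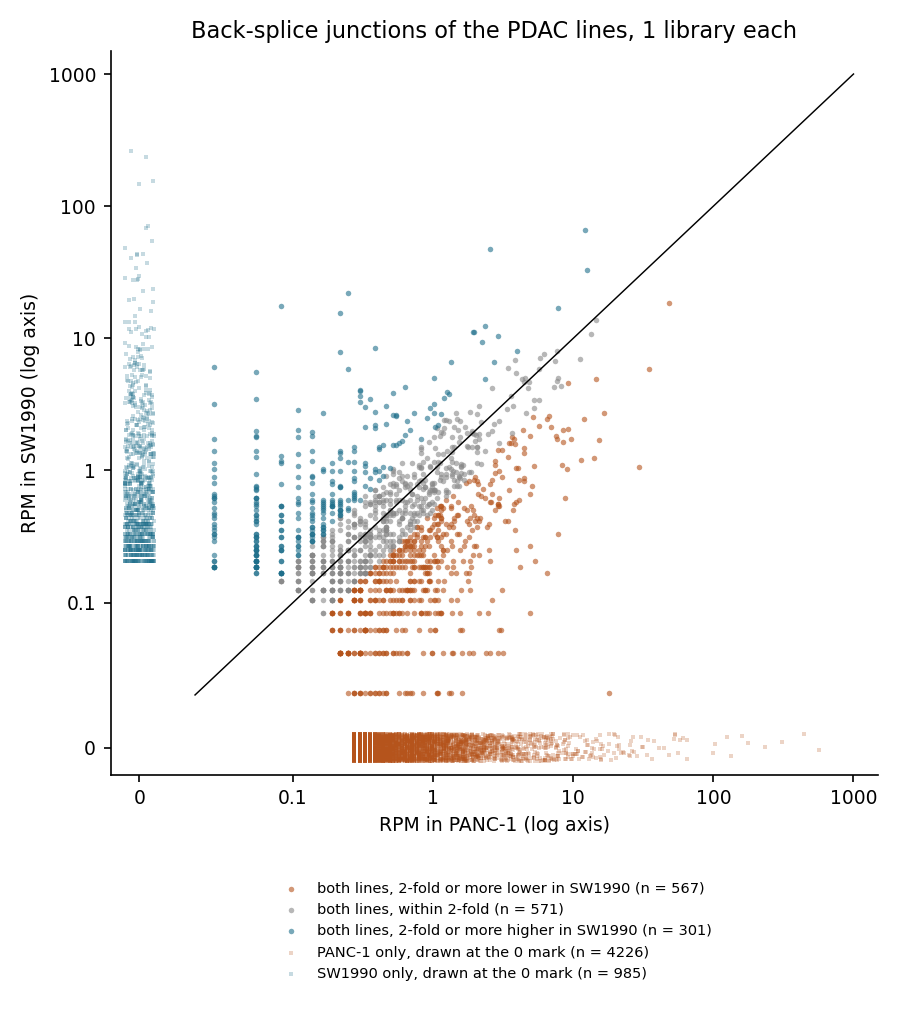
Each point is 1 back-splice junction, with its RPM in PANC-1 on the x axis and in SW1990 on the y axis, both log axes with a mark for 0, and the line marks equal RPM. The 4226 junctions read only in PANC-1 and the 985 read only in SW1990 lie along the 0 marks (spread sideways to be visible), and of the 1439 read in both, 301 lie at least 2-fold above the line and 567 at least 2-fold below it.

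The scatter of RPM by line shows that the junctions listed in a single line reach high levels and are not confined to the low end. The most abundant junction read in both lines was from HMGA1, a chromatin-binding protein of the high-mobility group, at 12.1 RPM (445 reads) in PANC-1 and 65.5 RPM (3151 reads) in SW1990, which is 5.39-fold higher (interval 4.88 to 5.97). An unnamed junction on chromosome 17 (75398141 to 75398785) followed in sum, with 47.9 RPM in PANC-1 against 18.5 RPM in SW1990. APP, the amyloid precursor protein, was 2.18-fold higher in SW1990 (1.91 to 2.51).

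Among junctions with at least 10 reads in each line, the 12 with the largest fold higher in SW1990 came from different hosts, and 11 of them are given here. VASP, which promotes the lengthening of actin filaments, led with exons 2 to 3 at 0.382 RPM (14 reads) in PANC-1 and 8.48 RPM (408 reads) in SW1990, 22.2-fold higher (interval 13.1 to 41.0). IFI6, an interferon-induced protein of mitochondria, had exons 2 to 4 at 2.54 RPM (93 reads) and 47.2 RPM (2271 reads), 18.6-fold higher (15.1 to 23.1). The other circles of the 11 lay at 8.48 RPM or less in SW1990, below IFI6.

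SLC3A2, the heavy chain of amino acid transporters, had 0.300 RPM (11 reads) in PANC-1 and 4.05 RPM (195 reads) in SW1990, 13.5-fold higher (7.38 to 27.5). PDIA4, a disulfide isomerase of the endoplasmic reticulum, was 13.3-fold higher and CANX, a lectin chaperone of the same compartment, 9.27-fold higher. ANXA2, a phospholipid-binding protein of the plasma membrane, was 7.50-fold higher. CIRBP, a cold-inducible RNA-binding protein, was 11.1-fold higher, CTBP1, a transcriptional corepressor, 9.84-fold, and RANGAP1, which activates the GTPase of nuclear transport, 7.24-fold. SEPT2, a septin, was 6.86-fold higher and PSMC3, an ATPase of the proteasome, 6.68-fold. The circles of SLC3A2, PDIA4, CANX and RANGAP1 were at 0 reads in HPDE.

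The 12 junctions with the largest fold lower in SW1990 were taken under the same minimum of 10 reads in each line. ZNF609, a zinc-finger protein whose circle is known from muscle cells, had 29.3 RPM (1076 reads) in PANC-1 and 1.06 RPM (51 reads) in SW1990, 27.7-fold lower (20.9 to 37.4). CCDC40, a protein of the ciliary axoneme, was 25.6-fold lower with 195 reads against 10. FBXW7, the substrate receptor of a ubiquitin ligase and a tumour suppressor, had 7.80 RPM (286 reads) and 0.332 RPM (16 reads), 23.5-fold lower (14.2 to 41.6). These values were the highest folds of the group and the intervals of the 3 circles overlap.

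Below them came ZBTB44, a zinc-finger protein, 18.2-fold lower, and STT3B, a catalytic subunit of the enzyme that attaches N-glycans, 15.8-fold. FANCL, the ubiquitin ligase of the Fanconi anaemia complex, had 8.70 RPM (319 reads) in PANC-1 and 0.623 RPM (30 reads) in SW1990, 14.0-fold lower (9.59 to 21.0). IPO7, an import receptor of the nucleus, had 14.2 RPM (520 reads) and 1.25 RPM (60 reads), 11.4-fold lower (8.70 to 15.1). CLASP1, which binds growing microtubule ends, was 12.2-fold lower, VAPA, a membrane-contact protein, 10.8-fold, and LIFR, a cytokine receptor, 10.1-fold. CDYL, a chromodomain corepressor, had 11.3 RPM (414 reads) and 1.20 RPM (58 reads), 9.37-fold lower (7.11 to 12.6), and HBS1L, which rescues stalled ribosomes, was 9.31-fold lower. Under each of the 4 other scalings the 11 circles named as higher and the 12 named as lower stayed past 2-fold in the same direction. This follows from how they were picked, since their folds exceed what a log2 shift of at most 1.37 can undo, and is no further support.

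Circles at a like level in both lines were also found among the abundant ones. HNRNPC, which binds nascent RNA in the nucleus, had 14.6 RPM (536 reads) in PANC-1 and 13.7 RPM (661 reads) in SW1990, a ratio of 0.939. BCAP31, a chaperone-like protein of the endoplasmic reticulum, had 13.3 and 10.8 RPM, a ratio of 0.815. P4HB, a disulfide isomerase, had 7.66 and 7.98 RPM at exons 3 to 4, a ratio of 1.04, and EPHA2, an ephrin receptor kinase, 7.42 and 6.71 RPM, a ratio of 0.905. PRKCSH, a glucosidase subunit, NQO1, a quinone reductase, LAMA5, a laminin chain, and MYO18A, a myosin, made up the other members of the group of 8. With total back-splice reads as the scale 3 of the 8 passed 2-fold higher in SW1990, and with reads outside the loci 6 did, whereas with TMM and the median of ratios none did.

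**Figure D2:**
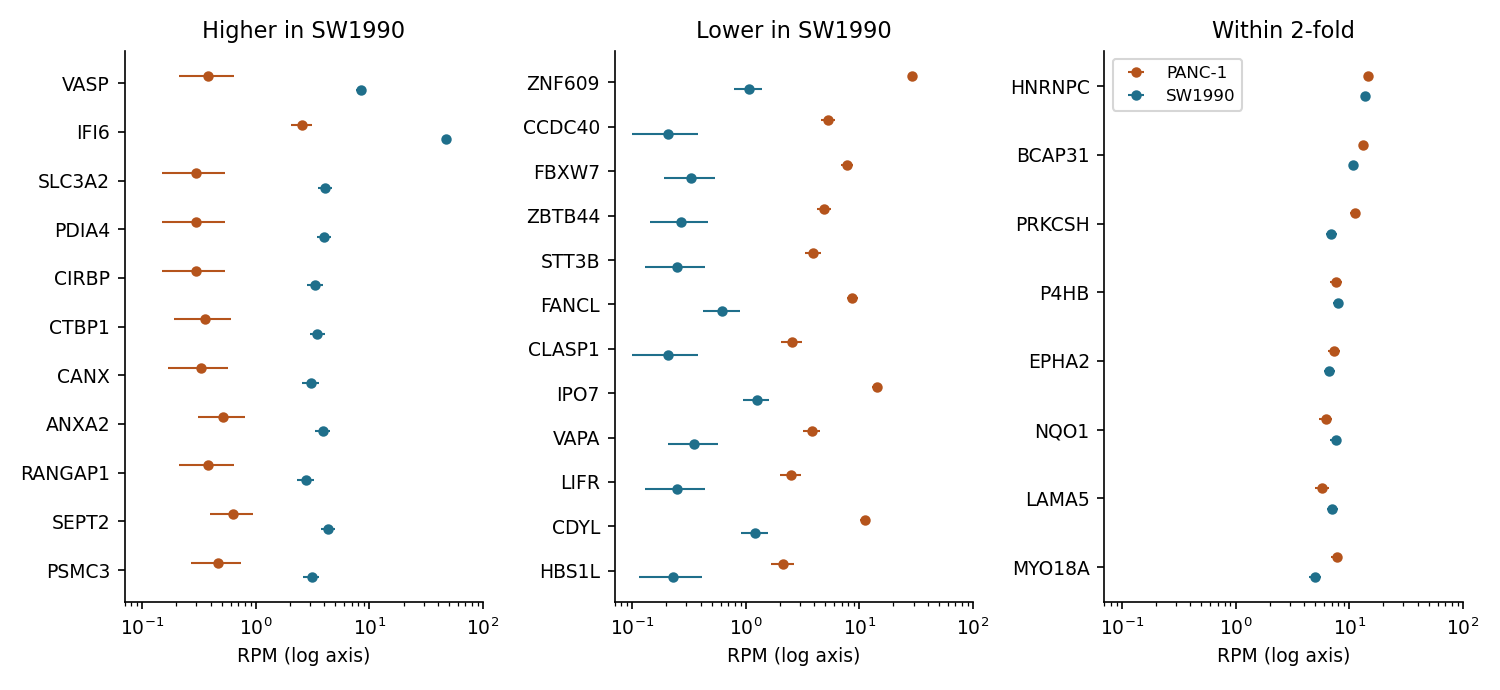
RPM (log axis) of the named junctions in PANC-1 and SW1990, in panels for 11 of the 12 with the largest fold higher in SW1990, the 12 lower and the 8 most abundant within 2-fold; points are the single library of each line and bars are 95% Poisson intervals of its reads. The lines are far apart in the first 2 panels, as for VASP at 0.382 and 8.48 RPM, and close in the last, as for HNRNPC at 14.6 and 13.7 RPM.

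The plot of named junctions shows wide bars at the low line of each pair, where 10 to 30 reads carry the value for most circles. The low line, not the high one, therefore sets the width of most fold intervals.

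Junctions with many reads in 1 line were often missing from the other. Of the PANC-1 junctions with 10 to 19 reads, 16.1% (14.6 to 17.7, exact binomial) were listed in SW1990, and of those with 100 or more reads 21.9% (18.4 to 25.7). Of the SW1990 junctions with 10 to 19 reads, 47.7% were listed in PANC-1, against 38.2% (32.6 to 44.1) of those with 100 or more. The share did not climb steadily with the reads of the junction in either line.

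**Figure D3:**
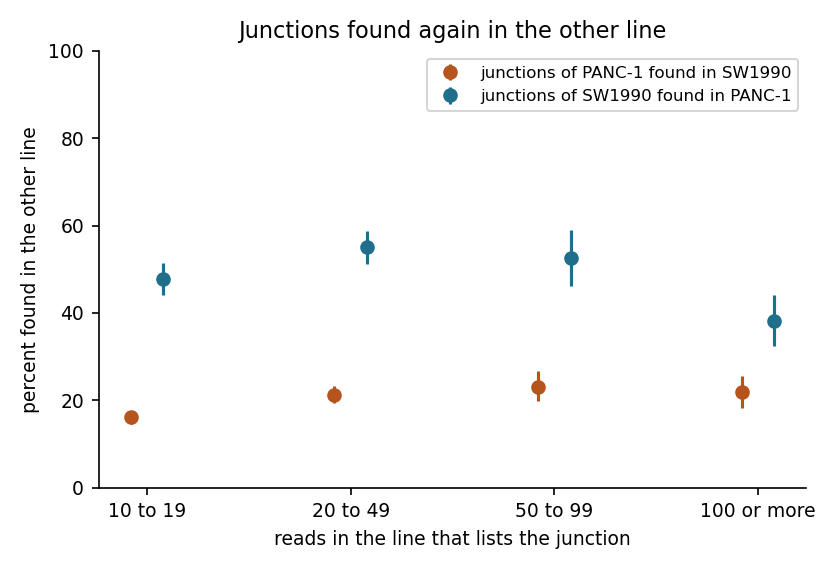
Percent of the junctions of 1 line that were also listed in the other (y axis), by the reads the junction had in the line that lists it (x axis); bars are exact 95% binomial intervals. The share stays between 16.1% and 23.1% for PANC-1 junctions and between 38.2% and 55.0% for SW1990 junctions.

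Among junctions read in SW1990 only, the 8 highest were HIST1H4B at 263 RPM, HIST1H1C at 234 RPM, HIST1H3H at 154 RPM, DCBLD2 at 147 RPM, RPS2 at 71.2 RPM, RPL13 at 68.1 RPM, HIST1H2BJ at 54.2 RPM and HIST1H1B at 47.9 RPM, all at 0 reads in PANC-1. Histone genes pack DNA, are mostly single-exon and exist in near-identical copies, so the copy a read belongs to is uncertain. DCBLD2, a transmembrane receptor-like protein, had its junction over 214 bases. Of the 8, only RPL13, of the large ribosomal subunit, joined annotated exons, 2 and 3.

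In PANC-1 the highest was an unnamed junction on chromosome 6 (26188987 to 26189229) at 568 RPM, followed by an unnamed one on chromosome 11 (65268834 to 65273125) at 441 RPM. SLC16A3, an exporter of lactate, came next with exons 2 to 4 at 309 RPM, named by its exon span. HIST1H1C had a junction of 233 RPM in PANC-1 that differed from the one in SW1990, and 4 further unnamed junctions on chromosomes 6 and 11 had 125 to 178 RPM. No gene is given to the unnamed junctions because no hg19 annotation was used here, and whether they join annotated exons was not tested. All of these were at 0 reads in SW1990.

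Junctions of annotated exon pairs were read in single lines as well, and the following were chosen after their values were seen. Those of SW1990 carry the symbols of its table. Those of PANC-1 were named by their exon span, so their match to an exon pair follows from the naming. In SW1990 only, LMNA, a nuclear lamin, had exon 6 at 43.2 RPM, RPS3 had exons 2 to 3 at 19.5 RPM, IGFBP6, which binds insulin-like growth factors, exons 2 to 3 at 16.6 RPM, and LASP1, an actin-binding adaptor, exons 5 to 6 at 13.4 RPM. In PANC-1 only, SUPT5H, an elongation factor of RNA polymerase, had exons 14 to 23 at 65.1 RPM, COL18A1, a basement membrane collagen, exons 10 to 13 at 60.7 RPM, PRPF19, a spliceosome ligase, exons 10 to 15 at 36.4 RPM, and SQSTM1, an autophagy receptor, exons 2 to 7 at 31.1 RPM.

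The genomic distance between the ends had a median of 6685 bases for junctions read only in PANC-1, 2311 bases for those read only in SW1990 and 3784 bases for those read in both. Under 500 bases lay 7.79% of the PANC-1 only junctions and 22.4% of the SW1990 only junctions. Junctions under 500 bases took 27.0% of the compared reads of PANC-1 and 47.7% of those of SW1990.

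The exons between the ends differed too, among junctions with spans of at least 1000 bases, the least span for exon-span names. Their summed length had a median of 507 bases over 2649 PANC-1 only junctions, 357 bases over 544 SW1990 only junctions and 358 bases over 1019 junctions read in both. The naming was not alike, since PANC-1 only junctions took names by overlap with SW1990 hosts or by exon span. With symbols alone the PANC-1 only median was 549 bases over 847 junctions and the SW1990 only median 357 over 542. The part of naming in the difference was not tested. At least 4 exons were held by 54.8% of the PANC-1 only, 29.4% of the SW1990 only and 26.1% of the shared circles. Within the shared circles the summed length hardly moved with direction, at 364.5 bases for those higher in SW1990 and 362 bases for those lower. A start at exon 2, the first exon that has a splice acceptor, was found in 37.2% of the shared circles lower in SW1990, 28.1% of those higher and 26.5% of those within 2-fold.

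**Figure D4:**
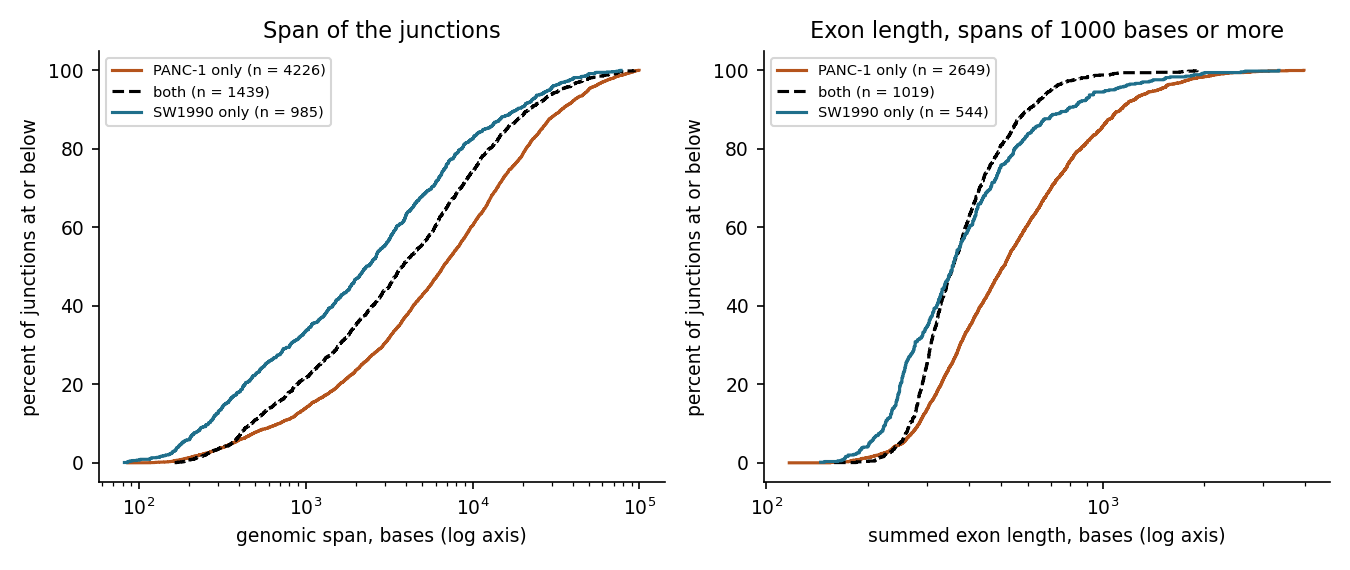
Cumulative percent of junctions (y axis) by genomic span in bases (left, log axis) and by summed exon length in bases for spans of at least 1000 bases (right, log axis), for junctions read only in PANC-1, only in SW1990 or in both. The PANC-1 only curve lies to the right in both panels, with medians of 6685 bases of span and 507 bases of exon.

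The cumulative curves show the exon lengths of SW1990 only and shared circles crossing near their medians of 357 and 358 bases, while the PANC-1 only circles are longer over most of the range. HPDE listed 42.5% of the junctions read in both lines, 9.44% of those read only in PANC-1 and 12.8% of those read only in SW1990.

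Junctions of a single line could still use a splice site of the other. Of the 985 SW1990 only junctions, 293 (29.7%, 26.9 to 32.7) had a start or an end that a PANC-1 junction used, and of the 4226 PANC-1 only junctions 628 (14.9%, 13.8 to 15.97) had one used in SW1990. The leading junction, the one with the most reads of its host, was compared in 718 hosts with at least 20 reads in each line. It was the same in 331 of them (46.1%, 42.4 to 49.8), and in 196 of the 583 hosts with more than 1 junction (33.6%). In 188 of the 387 hosts whose leaders differed, neither leader was read in the other line. Where both leaders had annotated exons, in 289 hosts, the PANC-1 leader was the longer in 208 and the SW1990 leader in 80, with medians of 526 and 359 bases. PANC-1 leaders not listed in SW1990 were named by overlap with a SW1990 host, and the part of this in the lengths was not tested.

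ABCC1, a drug efflux pump, is an example with reads on annotated exons in both lines. Its leader among the junctions named from symbols in PANC-1, exons 11 to 12, had 1.72 RPM (63 reads) there and 0.810 RPM (39 reads) in SW1990. Exons 25 to 27 led in SW1990 at 1.41 RPM (68 reads) and had 0.218 RPM (8 reads) in PANC-1. The circle of exons 22 to 23 had 1.27 RPM (61 reads) in SW1990 and 0.0545 RPM (2 reads) in PANC-1, where the same end closed a circle of exons 18 to 23 at 0.955 RPM (35 reads) that was at 0 reads in SW1990. A circle of exons 30 to 31, named by its exon span, had 1.42 RPM (52 reads) in PANC-1 and 0 reads in SW1990.

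VASP also had different leaders in the 2 lines, with 159 reads in PANC-1 and 727 in SW1990. Exons 4 to 7 led in PANC-1, with 2.73 RPM (100 reads) there and 6.63 RPM (319 reads) in SW1990. Exons 2 to 3, at 14 reads in PANC-1 and 408 reads in SW1990, led in SW1990. Exons 2 to 4, which start at the same base as exons 2 to 3, had 1.23 RPM (45 reads) in PANC-1 and 0 reads in SW1990.

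**Figure D5:**
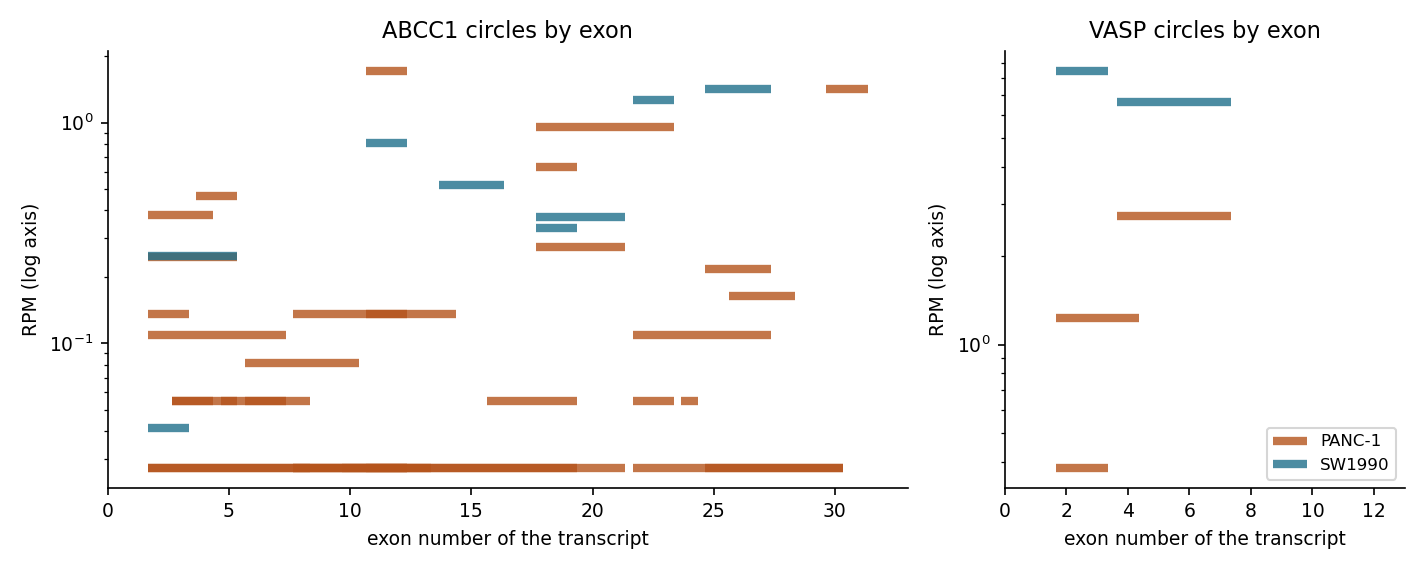
Circles of ABCC1 (left) and VASP (right) drawn from their first to their last exon (x axis, exon number in the GENCODE transcript) at their RPM (y axis, log), by line, with darker stretches where bars overlap. In ABCC1 the leaders are exons 11 to 12 at 1.72 RPM in PANC-1 and exons 25 to 27 at 1.41 RPM in SW1990, and in VASP exons 4 to 7 at 2.73 RPM and exons 2 to 3 at 8.48 RPM.

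The map of circles by exon shows more ABCC1 circles in PANC-1 than in SW1990, several of them at single reads. Other hosts with many reads and different leaders included HIST1H1C, PLEC, PKM, FLNA, MYH9 and P4HB. PKM, a pyruvate kinase, had exons 6 to 8 at 26.2 RPM (959 reads) in PANC-1, and in SW1990 a junction of 423 bases without an exon pair at 42.6 RPM (2049 reads), each at 0 reads in the other line. P4HB differed in another way, since its PANC-1 leader, exons 3 to 4, was level in both lines while a further junction, with 566 reads in SW1990 and 0 in PANC-1, led there.

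Leaders differed while both circles were read in both lines in 37 hosts, VASP and ABCC1 among them. PTK2, the focal adhesion kinase, and OGDH, a mitochondrial dehydrogenase, were among the others. The OGDH circles were nearly level in SW1990, at 53 and 52 reads. Leaders were called on read number alone, without a counting interval, so the counts of hosts with different leaders include near ties. Hosts read in both lines had a mean of 2.83 junctions in PANC-1 and 1.68 in SW1990, with more in PANC-1 for 812 of 1643 hosts, more in SW1990 for 171 and the same number for 660.

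Summed over junctions by host, with the symbols of the SW1990 table, 566 of 2061 hosts (27.5%) were higher in SW1990 and 819 (39.7%) lower in RPM. Over the same hosts, total back-splice reads gave 823 higher and 454 lower, and reads outside the loci 970 and 317. TMM gave 676 and 609, and the median of ratios 679 and 601. These symbols name no host that has reads only in PANC-1, while 418 of the hosts had reads only in SW1990. By the rule for 0 reads those 418 count as higher under each scaling. Part of each count of higher hosts is thus set by the naming. The counts at the other scalings give no split for the hosts read in both lines alone. Over the 1643 hosts read in both lines, 148 (9.0%) were higher and 819 (49.8%) lower in RPM. With PANC-1 junctions also named by the exon pair of their span, 505 of 3338 hosts (15.1%) were higher and 2230 (66.8%) lower. Of these 3338 hosts, 1192 were read only in PANC-1 and 363 only in SW1990. Among hosts with at least 10 reads in each line, DCBLD2 had the largest fold higher, 303-fold (191 to 511), with 0.491 RPM in PANC-1 and 149 RPM in SW1990, nearly all from the junction of 214 bases. DDB1, a damage-sensing subunit of a ubiquitin ligase, followed at 22.2-fold, then IFI6, DNAJC5, a vesicle co-chaperone, at 10.2-fold, MLPH, of melanosome transport, at 8.53-fold, and PPL, a desmosomal plakin, at 8.24-fold.

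Under the same minimum, the largest host fold lower was that of ZBTB46, a zinc-finger protein, which had 8.97 RPM in PANC-1 and 0.208 RPM in SW1990, 43.2-fold lower. RNF13, a ubiquitin ligase of endosomes, was 37.5-fold lower, and IGF1R, the receptor of insulin-like growth factor, had 7.09 and 0.249 RPM, 28.4-fold lower. With exon-span names as well, SPECC1, at 58.4-fold, and AHNAK, a giant scaffold protein, at 52.1-fold, came before them. The calls of some hosts turned with the naming. CTNNA1, alpha-catenin, went from 20 to 199 PANC-1 reads and from a log2 fold of 1.86 to -1.46, SLC16A3 from 0 to 11336 reads and from 8.83 to -3.05, and ITGA3, a laminin-binding integrin chain, from 115 to 829 reads and from 0.15 to -2.70.

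Gene groups are therefore described over junctions read in both lines, which are named alike for both. All 1421 named junctions of this kind had 298 higher in SW1990, 558 lower and a median log2 fold of -0.54. Their counts were 523 higher and 316 lower with total back-splice reads (median 0.41) and 645 and 236 with reads outside the loci (0.83). With TMM they were 405 and 408 (-0.03). Ubiquitin ligases and deubiquitinases, which attach and remove ubiquitin, had 1 junction higher and 29 lower of 45, with a median of -1.33. Hosts of widely reported circles had 6 higher and 35 lower of 60, with a median of -1.65. Relative to the whole these medians lay lower under every scaling, since a scaling moves all folds alike, but the counts were less uneven under the other scalings. The ubiquitin group had 8 higher and 13 lower with total back-splice reads, 3 and 19 with TMM, and 10 and 10 with reads outside the loci, where its median was 0.04. The widely reported hosts had 13 higher and 27 lower with total reads, 9 and 32 with TMM, and 17 and 21 with reads outside the loci.

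Within the ubiquitin group RNF13 had exons 3 to 5 at 2.48 RPM (91 reads) in PANC-1 and 0.0831 RPM (4 reads) in SW1990, 29.9-fold lower (11.3 to 112). FBXW7 and FANCL, described above, belong to it too. Within the widely reported hosts, ZKSCAN1, a zinc-finger protein, had 16.6 RPM (610 reads) and 2.74 RPM (132 reads), 6.07-fold lower (5.02 to 7.38). RTN4, which shapes the endoplasmic reticulum, had 34.8 RPM (1277 reads) and 5.88 RPM (283 reads), 5.92-fold lower (5.20 to 6.76). The exceptions included CIRBP and EXOC6B, of the exocyst, which was 4.84-fold higher in SW1990 (2.89 to 8.61), while PVT1, a long non-coding RNA, was within 2-fold at 7.61 and 4.78 RPM.

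Cell cycle, mitosis and centrosome genes had 5 higher and 16 lower of 30, with a median of -1.08, and DNA replication and repair genes 2 higher and 10 lower of 21, with a median of -0.88. CCNB1, the mitotic cyclin, was within 2-fold at exons 6 to 7, with 3.35 and 2.91 RPM. Nuclear pore and transport genes had 4 higher and 7 lower of 17, with a median of -0.73. TNPO3, an import receptor of splicing factors, had 4.94 RPM (181 reads) in PANC-1 and 0.0831 RPM (4 reads) in SW1990, 59.4-fold lower (22.8 to 220), and stood at the far end from RANGAP1. The medians of the DNA repair and nuclear transport groups were above 0 with total reads as the scale, at 0.08 and 0.23, and that of the cell cycle group was 0.29 with reads outside the loci. The whole had medians of 0.41 and 0.83 at these scalings, so these groups still lay below it.

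Chromatin regulators had 14 higher and 12 lower of 44 in RPM, with a median of 0.18, but 23 and 7 with total back-splice reads, 28 and 4 with reads outside the loci and 18 and 10 with TMM. At these scalings the whole of 1421 junctions moved the same way, to 523 and 316, 645 and 236, and 405 and 408. UHRF1, which reads methylated DNA, had exons 6 to 7 at 1.34 RPM (49 reads) in PANC-1 and 6.59 RPM (317 reads) in SW1990, 4.93-fold higher (3.64 to 6.8). KDM1A, a histone demethylase, was 5.50-fold higher (3.13 to 10.4) at its shared junction. Summed over its junctions by symbol, KDM1A went the other way, with 141 reads in PANC-1 and 111 in SW1990, a ratio of 0.600 (0.463 to 0.774). SETD3, a histidine methyltransferase of actin, was 4.48-fold lower and CREBBP, a histone acetyltransferase, 4.38-fold lower. RNA-binding and splicing genes had 6 higher, 6 lower and 20 within 2-fold of 32 in RPM, with a median of 0.10, but 16 higher and 4 lower with total reads, 21 and 2 with reads outside the loci and 13 and 4 with TMM. HNRNPUL1, a nuclear RNA-binding protein, had 0.0545 RPM (2 reads) in PANC-1 and 5.59 RPM (269 reads) in SW1990 at exon 8, a ratio of 102 (28.1 to 850).

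Signalling and adhesion groups lay near the whole. Receptor kinase, RAS and PI3K genes had 3 higher and 7 lower of 19, with a median of -0.23, TGF-beta, WNT and Hippo genes 3 and 8 of 20, with a median of -0.55, genes mutated in PDAC 4 and 6 of 16, with a median of -0.52, and vesicle traffic genes 8 and 10 of 30, with a median of -0.54. IGF1R exon 2 was 38.9-fold lower (19.4 to 91.1), RHEB, an activator of mTOR, 6.79-fold lower and ERBB2 within 2-fold at both of its junctions. Focal adhesion and actin genes had 8 higher and 10 lower of 32, with a median of -0.31. TRIO, a guanine nucleotide exchange factor, was 24.9-fold lower at exons 9 to 11, whereas MYH9, a non-muscle myosin, was level at exons 11 to 12 with 209 and 283 reads. With total back-splice reads as the scale the medians of these 5 groups were above 0, between 0.41 and 0.73, and with TMM those of the receptor kinase and focal adhesion groups were 0.29 and 0.21. The whole had medians of 0.41 with total back-splice reads and -0.03 with TMM.

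Hosts of circles reported in pancreatic cancer had 7 higher, 7 lower and 13 within 2-fold of 27 in RPM, with a median of 0.10. The counts were 15 higher and 6 lower with total reads (median 1.06), 16 and 5 with reads outside the loci (median 1.47) and 9 and 6 with TMM (median 0.61). The medians of the whole at these scalings were 0.41, 0.83 and -0.03. FOXK2, a forkhead transcription factor, had exons 2 to 3 with 330 reads in PANC-1 and 49 reads, 1.02 RPM, in SW1990, 8.84-fold lower (6.53 to 12.2). LDLRAD3, a receptor-like protein, was 4.94-fold lower. MYOF, which repairs the plasma membrane, had junctions on both sides, 2.63-fold lower at exons 45 to 49 and 2.67-fold higher at exons 49 to 50.

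Epithelial genes had too few shared junctions for a group, 5 in all, of which 3 were higher. LLGL2, a polarity protein, was level at 4.53 and 4.99 RPM. Summed by host with SW1990 symbols, 11 of 15 epithelial hosts were higher in SW1990, 9 of the 15 being read there only. The 3 lower hosts were PARD3 at 5.33-fold, TJP1 at 5.25-fold and PKP4 at 2.82-fold. With exon-span names 10 of 17 were higher and 6 lower. CTNNA1 had exons 4 to 7 at 0.0545 RPM (2 reads) in PANC-1 and 1.97 RPM (95 reads) in SW1990, a ratio of 36.2 (9.74 to 303), although its sum by exon-span names was lower in SW1990. The keratins KRT7, with 520 reads, and KRT80, with 78 reads, were read in SW1990 only. ZEB1, a repressor of epithelial genes, had 127 reads in PANC-1 and 36 in SW1990, while its single shared junction, exons 3 to 4, had 2 reads in PANC-1 and all 36 in SW1990.

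By chromosome, the shared junctions of the X had a median log2 fold of -2.23, with 0 of 15 higher and 12 lower, and those of chromosome 18 a median of -2.21, with 0 of 16 higher and 13 lower. Over all 1439 shared junctions the median was -0.55, with 20.9% higher and 39.4% lower. Medians in RPM were near 0, and so above that of the whole, on chromosomes 14 (0.02), 16 (0.006), 19 (0.09) and 21 (0.07). The highest was on chromosome 20, at 0.30. Each other scaling moves all these medians up alike, by 0.52 to 1.37, so near 0 holds for RPM only. The numbers of junctions on the X and on chromosome 18 are small.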

How the data were processed

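Back-splice junctions were counted from total RNA of PANC-1 and SW1990, 1 library each. The authors deposited RPM per junction and, for SW1990, read counts as well, per the file headers. The submitters' processing notes name TopHat2, TopHat, HTSeq and hg19; the circRNA caller and the reads behind the RPM total are not stated there. Reads were recovered as RPM divided by the smallest RPM; 100% came out whole within 0.05 reads, and for SW1990 they equalled the deposited count for 3764 of 3764 junctions. The value of 1 read implies library totals of 36.7 M (PANC-1) and 48.1 M reads (SW1990).

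Folds are ratios of the authors' RPM, called at 2-fold, with 0 set to 3 reads; intervals are 95% exact conditional binomial (ratios), Poisson (RPM) or Clopper-Pearson (shares). PCR copies are not independent, so intervals cover counting error only. Where the 0 was in 1 line, folds rest on the 3 reads set for it. They are lower bounds only if absence from a list means few reads, which was not tested. The exact test on reads, with Benjamini-Hochberg adjustment, was run as an alternative that compares libraries, not lines; it was tested on simulated data.

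Naming by hg19 gene position was not used. SW1990 symbols were passed to identical or overlapping PANC-1 junctions; as an alternative chosen after seeing the data, others were named where 1 gene between named neighbours has an exon pair (GENCODE 29) of exactly that span, of at least 1000 bases (right for 1979 of 2009 known junctions, 98.5%). No coordinates were converted. Names follow size: the 12 largest folds each way with at least 10 reads per line, the 8 most abundant within 2-fold and per single line, the leading switches with most reads, the 10 largest host folds and up to 5 hosts per list. The members and the 19 lists were chosen with earlier results of these data known. 1 emptied line of the PANC-1 table was not analysed here, and a few genes that the naming rule selects are not reported here. Python 3.11.15, pandas 2.3.3, SciPy 1.17.1, R 4.3.3 and edgeR 4.0.16 (TMM) were used.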

Additional observations from a re-analysis of the deposited data

How the results depend on the processing

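Among the values recomputed under the alternatives, 59 stayed within the tolerance set around the reported value and 23 moved. That tolerance was broad for counts, since 823 hosts higher with total back-splice reads, against 566 in RPM, stayed within it. The TMM and median of ratios counts below stayed within it too. The balance of higher and lower calls moved with the scaling for junctions read in both lines and for hosts. The host counts by SW1990 symbol include 418 hosts read only in SW1990, which count as higher under each scaling. With a minimum of 20 reads the junction counts were 825 higher in SW1990 and 2739 lower, and with no minimum 2761 and 7239. For junctions read in both lines, total back-splice reads gave 530 and 321, reads outside the loci 652 and 241, TMM 410 and 413, the median of ratios 419 and 409, and a 4-fold threshold 155 and 308. For hosts, total back-splice reads gave 823 higher and 454 lower, reads outside the loci 970 and 317, TMM 676 and 609, the median of ratios 679 and 601, a 4-fold threshold 362 and 438, and exon-span names 505 and 2230. The median span with at least 20 reads was 5893 bases for PANC-1 only and 1699.5 bases for SW1990 only. With no minimum, shared ends were 16.5% for PANC-1 and 33.5% for SW1990. The same leading junction was found in 50.7% of hosts with at least 50 reads, 41.1% with exon-span names and 50.5% over exon-pair junctions alone. The cause of these moves was not tested, other than what each scaling or minimum sets by construction. The exact test on reads, which compares the libraries, called 1213 higher and 4740 lower of all junctions, 215 and 487 of those read in both lines, and 542 and 765 hosts.

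No paired analysis was possible because each line has 1 library, and there was no replicate to leave out. The planned naming by hg19 gene position was not run. Depth limits the low line of each pair: a junction at 0 reads is bounded at 3 reads, 0.0818 RPM in PANC-1 and 0.0623 RPM in SW1990.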
